A study of Mus musculus with 2 samples.

Results

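The cells described here were 309 of 6220 kept cells from preparations of mouse biliary epithelium, some of which carried endothelial markers. These 309 carried the most RNA, as a share of their own total, of 7 genes: Ltf, Muc4, Ly6m, Slc28a2, Anxa10, Muc3 and Adgrg7. They were chosen from measured values. A cell was kept when it had at least 500 genes, at least 1000 unique molecular identifiers (UMIs, each standing for 1 captured RNA molecule) and at most 15% of its UMIs from mitochondrial genes. A kept cell became a member when its summed UMIs of the 7 genes over all its UMIs lay in the top 5% over both libraries and it had at least 3 such UMIs. Of the 311 cells at or above that limit, 2 had under 3 such UMIs and were left out. The limit stood at 15.006 UMIs of the 7 genes per 10000, the 5 members closest to it had 15.02 to 15.3, and the 5 cells just outside had 14.7 to 15.005. Of all kept cells, 4692 (75.4%) had no UMI of any of the 7 genes.

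The study measured whole-transcriptome RNA in single fixed biliary epithelial cells from mouse liver by split-pool combinatorial barcoding (the Evercode Whole Transcriptome kit), with random hexamer and oligo(dT) primers. One library carried the genotype label Sox9cKO and 1 carried Sox9con, and the series title describes the cells as Sox9-deficient and intrahepatic. The labels give no strain, age, sex, Cre driver or number of animals, and do not say which part of Sox9 is removed. Each genotype label thus has 1 library, so no difference between the labels can be tested here.

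Biliary epithelial cells line the ducts that carry bile from the liver to the gut. They modify bile by secreting chloride, bicarbonate and water, take bile acids back up, and protect themselves with a coat of mucins and with secreted defence proteins, as other wet epithelia do. Sox9 is a transcription factor of the SOX family that marks biliary cells in the liver. Membrane mucins such as Muc4 and Muc3 are long glycosylated proteins anchored in the apical membrane, and Ltf encodes lactoferrin, an iron-binding antimicrobial protein of secretions and of neutrophil granules.

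The stretches of DNA just before the start sites of Ltf, Muc4 and Muc3 are printed because Ltf and Muc3 had the highest and the lowest ratio between the libraries among the 7 genes, and Muc4 was found in most members. Each is the 250 bases before the annotated start, from RefSeq on the mouse build GRCm38.p6, read 5′ to 3′ on the gene's strand. The Ltf window is chr9:111019042-111019291 on the plus strand, the Muc4 window is chr16:32735636-32735885 on the plus strand, and the Muc3 window is chr5:137166047-137166296 on the minus strand. The deposited counts were made on another build, GRCm39, so these coordinates are not those of the counts. Capitals mark AGGTCA, the half-site bound by nuclear receptors, in Ltf and Muc3, and TATAAA, a core promoter motif, in Muc4.
Ltf: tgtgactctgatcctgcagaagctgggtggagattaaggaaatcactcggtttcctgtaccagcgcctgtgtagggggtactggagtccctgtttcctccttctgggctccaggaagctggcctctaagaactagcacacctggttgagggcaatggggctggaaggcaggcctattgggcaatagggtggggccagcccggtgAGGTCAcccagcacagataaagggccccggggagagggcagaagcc
Muc4: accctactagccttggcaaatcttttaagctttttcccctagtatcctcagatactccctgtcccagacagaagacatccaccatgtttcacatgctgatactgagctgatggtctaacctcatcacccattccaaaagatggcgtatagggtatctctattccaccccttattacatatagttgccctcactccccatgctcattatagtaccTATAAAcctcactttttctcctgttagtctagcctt
Muc3: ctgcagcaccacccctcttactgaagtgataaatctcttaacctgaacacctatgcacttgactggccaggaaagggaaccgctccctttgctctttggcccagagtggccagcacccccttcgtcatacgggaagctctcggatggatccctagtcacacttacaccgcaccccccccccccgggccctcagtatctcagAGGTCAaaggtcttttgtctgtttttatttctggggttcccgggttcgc
The AGGTCA began 46 bases before the start of Ltf and 49 bases before that of Muc3. On either strand (AGGTCA or TGACCT), 4607 of 32851 windows of this length (14.0%) held it, and Muc4, Slc28a2, Anxa10 and Adgrg7 did not. TATAAA began 36 bases before the start of Muc4 and 32 before that of Anxa10, and 12.4% of windows held it on either strand (TATAAA or TTTATA). The SOX core ACAAT or ATTGT was in 27.7% of windows, in those of Slc28a2 and Adgrg7, and not in those of Ltf, Muc4, Anxa10 and Muc3. The table had windows for 6 of the 7 genes, all but Ly6m. The motifs were picked after the sequences were seen, and a match is a description of letters only.

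The library labelled Sox9cKO held 2740 cells and 14856321 UMIs, and 2713 of its cells were kept. The library labelled Sox9con held 3622 cells and 12811243 UMIs, and 3507 were kept. Median UMIs per cell, over all cells before the filter, were 5020 and 3161. No cell barcode was shared between the libraries, and cells of both were present in all 8 sublibraries. Cells labelled Sox9cKO had passed through 5 barcoding wells and cells labelled Sox9con through 4 others, so the wells are technical parts of 1 library and not replicates. Sox9 RNA did not separate the libraries: among members it stood at 96.5 CPM (UMIs of the gene per 1000000 UMIs) in the library labelled Sox9cKO (76 UMIs) and at 83.7 in the library labelled Sox9con (79 UMIs). In the remaining cells it stood at 121 and 146. The labels are therefore used as names of libraries throughout.

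Of the members, 131 lay in the library labelled Sox9cKO, 4.83% of its kept cells (exact 95% interval 4.05 to 5.70%), and 178 in the library labelled Sox9con, 5.08% (4.37 to 5.85%). The intervals cover counting error only. By well the share ran from 4.02 to 5.63% in the former library and from 3.47 to 5.98% in the latter, so the wells of both overlapped. With every cell thinned to 2000 UMIs, and shallower cells left out, the shares were 5.70% (145 of 2544) and 7.26% (210 of 2891). At equal depth the score moves in whole UMIs and all cells tied at the limit entered. The thinned choice was thus looser than a top 5%, and its shares are not on the same scale as those above. Thinning left out 6 of the 131 and 13 of the 178 members for want of depth. Among cells removed by the filter, 2 of 27 labelled Sox9cKO and 20 of 115 labelled Sox9con passed the same score, and 19 of those 20 were over the mitochondrial limit.

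Members differed from other cells in depth and in mitochondrial share, and these values stand beside every result that follows. Their median depth was 5727 UMIs against 5017 for the remaining cells in the library labelled Sox9cKO, and 5152 against 3142 in the library labelled Sox9con. Their median mitochondrial share was 4.38% against 5.87% in the former and 9.53% against 5.37% in the latter, so it was lower than in the remaining cells in one library and higher in the other. The part of the mitochondrial share in the results was not tested. A member held a median of 18 UMIs of the 7 genes in the library labelled Sox9cKO and of 14 in the library labelled Sox9con.

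The 7 genes chose the cells, so their levels are a description. Levels are CPM, taken over all UMIs of the same cells. Muc4 stood at 1838 CPM in Sox9cKO-labelled members, where 96.2% of members had a UMI of it, and at 943 CPM in Sox9con-labelled members, where 82.6% had one. The remaining cells stood at 39.6 and 25.7 CPM. Adgrg7, an orphan adhesion receptor known from the gut, stood at 595 and 974 CPM in members (77.1% and 86.5% of cells) against 30.1 and 53.6 CPM in the remaining cells. Muc4 and Adgrg7 were thus the pair found in most members of both libraries.

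Ltf, the gene named first in the working label of these cells, was a gene of 1 library. It stood at 305 CPM in Sox9cKO-labelled members, with 240 UMIs in 61 of 131 cells, and at 2.12 CPM in Sox9con-labelled members, with 2 UMIs in 1 of 178 cells. All 5 wells of the former lay between 149 and 363 CPM, and the 4 wells of the latter between 0 and 8.70 CPM, so the wells did not overlap. In the remaining cells Ltf stood at 1.499 and 0.943 CPM. The log2 ratio of the library labelled Sox9cKO over the library labelled Sox9con was 6.82 in members, with a counting interval of 5.30 to 10.2, and 0.65 in the remaining cells (−0.45 to 1.87). The label's first gene therefore does not hold for the members of the library labelled Sox9con, and the cells are called Muc4 and Adgrg7 cells here.

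Muc3, a membrane mucin of the intestinal brush border, was shared the other way. It stood at 316 CPM in Sox9cKO-labelled members, in 25 of 131 cells with 63 of its 249 UMIs in 1 cell, and at 855 CPM in Sox9con-labelled members, in 139 of 178 cells. The wells ran from 124 to 605 CPM and from 716 to 1074 CPM and did not overlap. The log2 ratio was −1.43 (−1.65 to −1.23) in members and −1.98 in the remaining cells, where Muc3 stood at 7.42 and 29.4 CPM. Muc3 was thus lower in the other cells of the library labelled Sox9cKO too. The score took out cells high in Ltf or Muc3, so the ratios of both genes in the remaining cells depend on that choice. In the cells left when only the other 6 genes made the choice, Ltf stood at 2.64 CPM (37 UMIs) in the library labelled Sox9cKO. It stood at 0.944 CPM (11 UMIs) in the library labelled Sox9con.

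Ly6m, a membrane-anchored protein of the Ly6 family, stood at 447 and 345 CPM in members, in 38.2% and 41.6% of cells, and its wells overlapped (325 to 538 and 181 to 555 CPM). Slc28a2, a sodium-driven transporter of nucleosides, stood at 62.2 and 138 CPM in 15.3% and 23.0% of members, and at 0.214 and 0.514 CPM elsewhere. Anxa10, an annexin known from gastric epithelium, stood at 227 and 142 CPM in 24.4% and 14.6% of members. Of its 134 UMIs in Sox9con-labelled members, 44 came from 1 cell, and its wells ran from 30.4 to 322 CPM there and from 59.8 to 321 CPM in the other library. Anxa10 and Slc28a2 were thus genes of a minority of members in both libraries. As a gauge of free RNA, 84 and 111 cells were used that held at least 5 UMIs of endothelial markers and fewer UMIs of biliary markers. Their median depths were 2377 and 2262 UMIs. In these cells the 7 genes stood at 0 to 12.2 CPM, and none of them was a member.

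**Figure D1:**
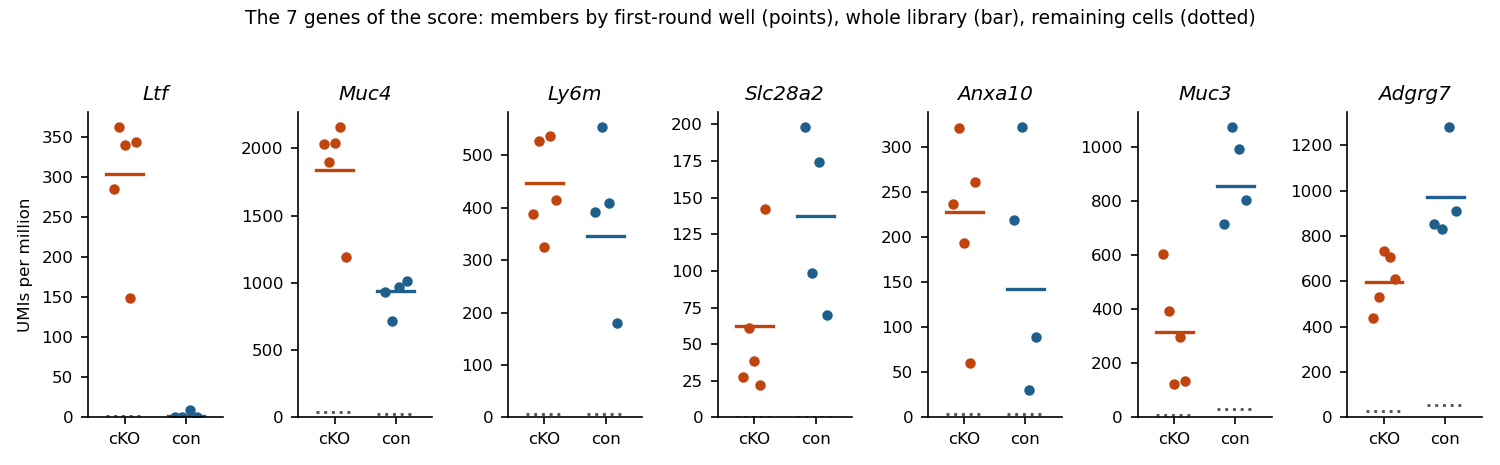
Level of each of the 7 genes in CPM (linear axis from 0) for members, by barcoding well (points: 5 wells labelled Sox9cKO, 4 labelled Sox9con), with the whole library as a bar and the remaining cells as a dotted line. The wells of Ltf, Muc4, Muc3 and Adgrg7 do not overlap between the libraries, with Ltf at 149 to 363 against 0 to 8.70 CPM.

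Members were not uniform. In the library labelled Sox9cKO, 16, 26, 32 and 39 members had 1, 2, 3 and 4 of the 7 genes detected, and 15, 1 and 2 had 5, 6 and 7. In the library labelled Sox9con, 12, 39, 53 and 44 members had 1, 2, 3 and 4, and 23 and 7 had 5 and 6. Within the library labelled Sox9cKO, Muc3 was detected in 5 of the 61 members with Ltf and in 20 of the 70 without it. Anxa10 was detected in 21 of the 61 with Ltf and in 11 of the 70 without it, while Muc4 was found in 59 of 61 and 67 of 70. In the library labelled Sox9con, 117 of the 147 members with Muc4 also had Muc3. Since the score chose the cells by the sum of these genes, the shares describe the members and say nothing of how the genes go together.

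As a description of how far the 7 genes go together, membership was rebuilt 7 times from the other 6 genes. Every gene but Ltf was higher in cells chosen without it in each library taken alone. The log2 ratio of chosen over other cells was 4.51 and 4.45 for Muc4, 5.57 and 4.26 for Ly6m, 5.57 and 5.12 for Anxa10, 5.16 and 4.11 for Muc3, and 4.08 and 3.46 for Adgrg7, in the libraries labelled Sox9cKO and Sox9con. Slc28a2 had 49 UMIs in chosen cells against 3 in all others of the former, and 119 against 17 in the latter. The fits of these sets called 7.43, 9.15, 5.17, 9.48, 9.19, 7.61 and 8.48% of all tested genes higher for Ltf, Muc4, Ly6m, Slc28a2, Anxa10, Muc3 and Adgrg7, so a call of the left-out gene is one of many. Ltf gave 6.76 in the library labelled Sox9cKO and 1.09 (counting interval −2.07 to 3.34, from 2 against 11 UMIs) in the other.

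Members were biliary cells by their markers. Over 15 biliary markers, among them Epcam, Krt19 and Krt7, 131 of 131 and 177 of 178 members had at least 5 UMIs, and the summed level was 8674 CPM against 9441 in the remaining cells of the library labelled Sox9cKO and 11633 against 15511 in the other. Of 11 leukocyte markers 9 were at 0 in members of each library, including the pan-leukocyte gene Ptprc. Since lactoferrin is also a neutrophil granule protein, 11 genes of neutrophil granules were read: in Sox9cKO-labelled members 10 were at 0, Mpo, Elane, Camp, Ngp, S100a8 and S100a9 among them, and only Lcn2, which epithelia also make, was present. Of 10 endothelial markers, Pecam1, Cdh5, Stab2 and Tie1 were at 0 in Sox9cKO-labelled members and Cdh5 in Sox9con-labelled members. Flt1, a receptor of vascular growth factor, made up 51 of the 62 endothelial UMIs of the former, spread over 20 cells. Of 12 hepatocyte genes 3 and 5 were at 0, and their summed level was 576 against 1265 CPM and 629 against 942 CPM. At least 5 such UMIs were found in 32.1% of members against 47.8% of remaining cells in the library labelled Sox9cKO. In the library labelled Sox9con they were found in 27.5% against 25.9%.

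For the other genes, members were compared with all remaining kept cells by edgeR's quasi-likelihood test on summed UMIs, with the library as a block. There were 4 sums in each fit, members and remaining cells of each library. The 7 genes were picked as markers in these same cells, so the fold changes of other genes describe the cells. The adjusted p (Benjamini-Hochberg, over all genes tested) weighs a difference against a spread over the 2 libraries. With 4 sums per fit, edgeR takes that spread largely from all tested genes together and little from the gene itself. A small value does not mean that both libraries showed the difference alike. Of 9542 genes with at least 200 UMIs, 783 (8.21%) were higher in members and 800 (8.38%) were lower at an adjusted p under 0.05. With the remaining cells matched to the members on depth, the counts were 549 and 560.

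The 15 genes with the highest fold changes included enzymes, channels and a receptor for antibody transport. Duox2, a dual oxidase that makes hydrogen peroxide at mucosal surfaces, stood at 1077 CPM in members against 69.3 in the remaining cells of the library labelled Sox9cKO, and at 281 against 29.1 in the other, a fitted log2 fold change of 3.75 (SE 0.20, edgeR adjusted p = 1.2e-05). Duoxa2, its maturation factor, stood at 249 against 13.0 and 73.1 against 7.11 CPM, with a log2 fold change of 3.98 (SE 0.25). Both genes were higher in members in 9 of 9 wells. Without the library block the adjusted p of Duox2 was 0.061 in edgeR, at a log2 fold change of 3.87.

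Pigr, Gcnt3 and C4bp were in the same set. Pigr, the receptor that carries IgA across epithelia into bile, stood at 2638 against 185 CPM in the library labelled Sox9cKO and at 1799 against 351 in the other, a log2 fold change of 3.22 (SE 0.30, edgeR adjusted p = 0.00011). Taken alone, the libraries gave 3.83 and 2.36 for Pigr. Gcnt3, the enzyme that branches the sugar chains of mucins, stood at 63.5 against 4.997 and 179 against 8.23 CPM (4.23, SE 0.28). C4bp, an inhibitor of complement, stood at 127 against 15.3 and 162 against 5.83 CPM (4.001, SE 0.39). Each of these 3 genes was higher in members in 9 of 9 wells.

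Among genes of metabolism and the membrane, Gsto1, a glutathione transferase of the omega class, stood at 720 against 55.6 CPM and 1036 against 100.1 CPM (3.66, SE 0.18, edgeR adjusted p = 9.3e-06). Aspa, which splits N-acetylaspartate, stood at 57.1 against 2.64 and 101 against 3.51 CPM (4.78, SE 0.30). Lypd6, a membrane-anchored relative of the Ly6 proteins, had the highest fold change of all genes named, 5.22 (SE 0.29), at 64.7 against 1.999 and 102 against 2.83 CPM. It was a gene of few members, with its UMIs in 14 of 131 and 37 of 178 of them. Atp10b, a lipid flippase, stood at 284 against 14.9 and 136 against 19.2 CPM (3.68, SE 0.29).

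Among ion channels and signalling genes, Trpm3, a cation channel, stood at 161 against 12.3 and 275 against 7.28 CPM (4.59, SE 0.36, edgeR adjusted p = 5.4e-05), and Kcnb2, a voltage-gated potassium channel, at 277 against 45.0 and 248 against 11.7 CPM (3.58, SE 0.38). Kcnb2 had an adjusted p of 0.061 without the library block. Ikzf2, the zinc finger factor Helios, stood at 324 against 29.0 and 408 against 35.5 CPM (3.63, SE 0.17), and Rasgrf1, an exchange factor of Ras, at 270 against 23.5 and 214 against 26.6 CPM (3.39, SE 0.19). Ikzf2 and Rasgrf1 were found in both libraries at 214 CPM or more in members. Pcdh11x, a protocadherin, had a log2 fold change of 3.48 (SE 0.37), and Gm35533, a predicted gene, of 4.10 (SE 0.32) from 551 against 19.7 and 256 against 29.3 CPM. All 15 of these genes were higher in members in 9 of 9 wells. Gsto1, Duoxa2 and several others overlap a gene on the other strand, Cfap43 and Duoxa1 in these cases, and how the counting used strand is not given in the sources used here.

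**Figure D2:**
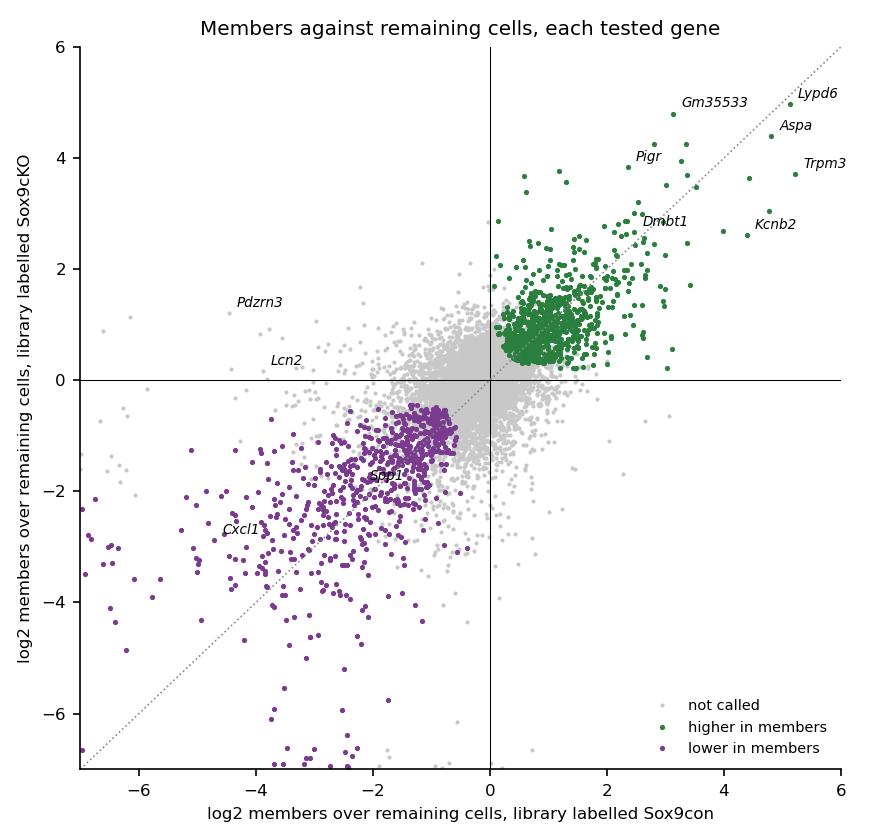
Each point is 1 of the genes tested, placed by its log2 ratio of members over remaining cells in the library labelled Sox9con (horizontal) and in the library labelled Sox9cKO (vertical), with 128 genes outside the axes. Colour gives the edgeR call over both libraries, and the dotted line marks equal ratios; Lypd6, Aspa and Trpm3 lie far up in both, while Pdzrn3 and Lcn2 lie left of 0 in the library labelled Sox9con and at or above 0 in the other.

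The 10 genes with the lowest fitted values had no UMI in members of either library. They were Fst, Shank3, Mctp1, Lhfp, Cdh5, Serpina1b, Rbp4, Selp, Fli1 and Dennd2a. Bounds were read in each library against the limit that a count of 0 allows there, 3 counts, or 3.81 CPM in Sox9cKO-labelled and 3.18 CPM in Sox9con-labelled members. Fst, which encodes the activin inhibitor follistatin, stood at 49.97 and 3.17 CPM in the remaining cells, so it was at least 13.1-fold lower in members of the library labelled Sox9cKO and not detectably lower at this depth in the other. Rbp4, the plasma carrier of retinol, was at least 8.85- and 2.05-fold lower, with a UMI in 12.8% and 2.01% of remaining cells. For Mctp1 the same bounds would be 10.5- and 3.02-fold, but they count UMIs and not cells. Only 1.47% and 0.72% of remaining cells held a UMI of Mctp1, so no fold is drawn from its absence in members. Serpina1b, one of several near-identical copies of the alpha-1-antitrypsin gene and so uncertain, had 616 UMIs in the remaining cells of the library labelled Sox9cKO and 6 in the other. DESeq2 called none of the 10 genes but Cdh5, the edgeR adjusted p of Mctp1 was 0.22 with remaining cells matched on depth, and without the block Fst, Mctp1, Serpina1b, Rbp4 and Dennd2a missed the threshold in edgeR (adjusted p = 0.30, 0.15, 0.45, 0.20 and 0.066). Shank3, Cdh5, Selp and Fli1 are known from endothelium, and most of their UMIs outside members came from the 84 and 111 cells with endothelial genes (272 of 292 and 251 of 270 UMIs of Cdh5). Without those cells the edgeR adjusted p was 0.33 for Cdh5, 0.59 for Selp and 0.14 for Fli1. In all, 35 tested genes were at 0 in members of both libraries.

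Among genes with at least 2000 UMIs over all cells, a limit chosen after the values were seen, the lowest in members included adhesion molecules, plasma proteins and inflammatory signals. Ncam1, a neural cell adhesion molecule, had a log2 fold change of −4.64 (SE 0.40), Vtn, the plasma protein vitronectin, of −3.79, and Inhba, an activin subunit, of −3.78. Lif, a cytokine of the interleukin-6 family, was at −3.65, and Apoe, an apolipoprotein, at −3.62 (SE 0.20), from 50.8 against 564 CPM and 69.9 against 1109 CPM. Alb, albumin, was at −3.41 and Hspg2, the basement membrane protein perlecan, at −3.41. All of these passed edgeR's threshold. Of 6 tested hepatocyte genes, Alb among them, 1 was higher, 2 were lower and 3 were not called. Their median was −0.15, against −0.02 over all tested genes.

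The gene lists below were written with earlier results of these data in view, and their medians stand beside the median of all tested genes, −0.02 on the log2 scale. Of 5 tested mucins outside the 7 genes, 3 were higher and none lower, with a median of 1.23: Muc13, a membrane mucin, at 85.1 against 20.1 and 33.9 against 29.9 CPM (1.32), Muc20 (1.23), and Muc1 at 408 against 197 and 417 against 250 CPM (1.02). Of 15 enzymes of mucin O-glycosylation 5 were higher and none lower, with a median of 0.68. They were Gcnt3, Galnt12 (1.21), C1galt1 (0.95), Galnt10 (0.71) and Galnt7 (0.69), which begin or extend the sugar chains of mucins. The background of higher calls was 8.21% of all tested genes.

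Of 14 genes of mucosal defence 6 were higher and 4 lower, and the median was 0.01. Higher were Duoxa2, Duox2, Pigr, Dmbt1, Fcgbp and Wfdc2. Dmbt1, a scavenger glycoprotein of mucosal surfaces, stood at 11691 against 1834 CPM in the library labelled Sox9cKO and at 12418 against 2249 in the other (2.69, SE 0.23), though it overlaps Fgfr2 on the other strand. Fcgbp, a mucin-like protein that binds IgG, stood at 183 against 57.5 and 158 against 37.8 CPM (1.99). Lower were Slpi, a secreted protease inhibitor (−2.90), Cd74, the chain that escorts class II molecules (−1.95), and the complement genes C3 (−1.25) and Cfb (−1.23). The list thus held genes called in both directions, and C4bp, the complement inhibitor named above, was higher.

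Of 6 tested gastric genes 3 were higher, Sult1c2 (2.30), Ctse, the gastric protease cathepsin E (2.06), and Psca (0.995), and Tff2, the trefoil factor of gastric mucus, was lower (−0.79). The gastric genes Gkn1, Gkn2, Vsig1, Cldn18 and Muc5ac were at 0 in members of both libraries. Of 14 brush border and enterocyte genes 4 were higher, Ush1c (1.79), the actin bundler Vil1 (1.63), the galectin Lgals4 (1.56) and Myo1a (1.38). Of 9 annexins other than Anxa10, Anxa1 (1.66), Anxa4 (0.69) and Anxa13 (0.59) were higher, and Anxa6 (−2.77) and Anxa5 (−0.66) lower. Of 7 Ly6 family genes Ly6d (2.28) and Psca were higher. Of 7 genes of nucleoside handling, Slc28a3 (2.22), a relative of Slc28a2, and Xdh (0.85) were higher and Adk (−0.69) lower. Of 8 iron genes none was higher, while Trf, transferrin, a relative of lactoferrin, was lower with 1 UMI in members, and so was Slc11a2 (−1.31).

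Of 10 tested genes of biliary secretion and bile handling 5 were higher and 1 lower, with a median of 0.87. Slc10a2, the apical transporter that takes up bile acids, stood at 161 against 22.4 and 149 against 19.0 CPM (3.03, SE 0.20, edgeR adjusted p = 2.7e-05). Abcc3, an exporter of organic anions, was at 1.79, Ano1, a calcium-activated chloride channel, at 1.35, the carbonic anhydrase Car2 at 0.91 and the anion exchanger Slc4a2 at 0.84. Slc5a1, a glucose transporter, was lower (−1.44), and Cftr, the cyclic AMP-gated chloride channel, had a log2 fold change of 0.14 (edgeR adjusted p = 0.69). Of the tested biliary markers Krt7 (0.83), Prom1 (0.63) and Cldn3 (0.63) were higher. Spp1, osteopontin, was lower, at 570 against 2132 and 928 against 4249 CPM (−1.92). Sox9 had a log2 fold change of −0.44 (SE 0.18, edgeR adjusted p = 0.14).

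Of 23 epithelial transcription factors 8 were higher and 3 lower. The highest were nuclear receptors: Esrrg, an orphan receptor, at 335 against 47.5 and 117 against 25.4 CPM (2.65), Pparg, a lipid-sensing receptor, at 320 against 49.97 and 260 against 59.5 CPM (2.53), and Vdr, the vitamin D receptor, at 34.3 against 10.2 and 49.8 against 11.1 CPM (2.10). Nr1h4, the bile acid receptor FXR, was at 0.94, and Klf5 (1.12), Elf3 (1.01) and Onecut2 (0.68) were also higher. Foxa1 (−2.97), the retinoic acid receptor Rarb (−2.27) and Sox4 (−1.10) were lower. Of 16 tight junction genes 4 were higher, Cldn2, a pore-forming claudin (2.27), Cldn23 (1.37), Cldn3 and Cgn (0.62), while Cldn6 was at 0 in members, at least 3.17- and 4.42-fold lower in the libraries labelled Sox9cKO and Sox9con. Of 9 ERBB receptor and ligand genes, the ligands Areg (1.80) and Btc (0.76) and the receptors Erbb3 (1.2003) and Egfr (0.58) were higher, and Nrg1 (−2.44) and Erbb4 (−1.86) were lower. Of 9 tested adhesion receptors other than Adgrg7, 1 was higher, Adgrl2 (1.53), and 4 were lower.

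Response genes were lower in members. Of 15 genes of the NF-kB and cytokine response none was higher and 11 were lower, with a median of −1.12, against a background of 8.38% lower. Cxcl1, a chemokine that attracts neutrophils, stood at 109 against 801 and 41.3 against 1083 CPM (−3.59, SE 0.33, edgeR adjusted p = 0.00012), and Cxcl2 at 230 against 974 and 39.2 against 956 CPM (−3.05). Ccl20 (−2.70), Csf3 (−2.50) and the adhesion molecule Icam1 (−2.48) were lower too. Of 15 immediate early genes 8 were lower and none higher, with a median of −0.80 (Ier3 −2.02, Atf3 −1.54, Egr1 −1.25). Of 11 interferon response genes 6 were lower and none higher, with a median of −1.21, Isg15 (−2.22) and B2m (−1.21) among them. Of 12 YAP and TEAD targets Ankrd1 (−3.09), Ccn1 (−0.95) and Ptpn14 (−0.94) were lower and Wwc1 was higher. Of 6 Notch genes the ligand Dll1 was higher (1.36) and the receptor Notch1 lower (−1.63). None of 4 tested proliferation genes passed the threshold.

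**Figure D3:**
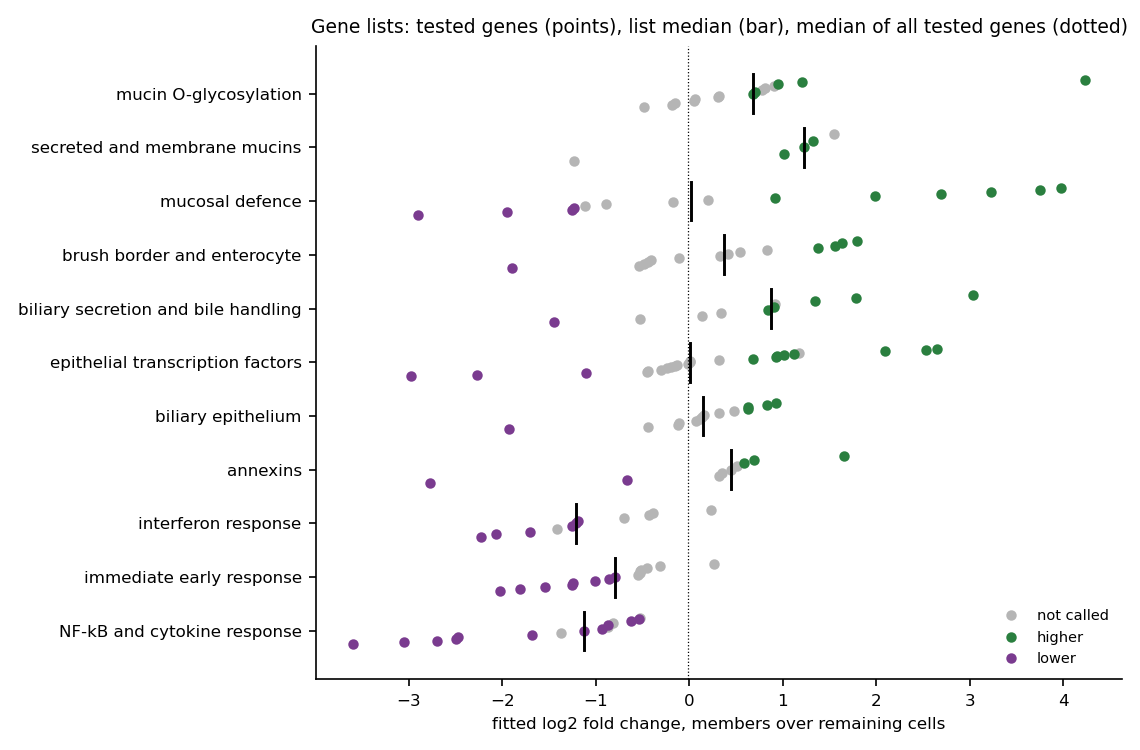
Fitted log2 fold change of members over remaining cells for each tested gene of 11 lists (points), coloured by edgeR call, with the list's median as a bar and the median of all tested genes as a dotted line. Mucin, O-glycosylation and bile handling lists have medians of 1.23, 0.68 and 0.87, and the interferon, immediate early and NF-kB lists of −1.21, −0.80 and −1.12.

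The same genes were read along the score rather than across its limit, in 5 bands of cells from those with no UMI of the 7 genes to those in the top 2.5%. Dmbt1 went from 1222 CPM in the lowest band to 2926, 7459, 9415 and 13400 in the library labelled Sox9cKO, and from 1151 to 4462, 8706, 10674 and 14288 in the other. Pparg went from 38.3 to 407 CPM and from 38.4 to 312. Dmbt1 was therefore already above its lowest level in cells below the members' limit. Gsto1 went from 46.5 to 783 CPM and from 70.6 to 1328, with its steepest part between the bands on each side of the limit in the library labelled Sox9cKO (193 to 636 CPM). Spp1 fell from 2285 to 342 CPM and from 4756 to 827. These are descriptions of sums over cells that the score itself ordered, and no test was made.

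Lcn2, an iron-scavenging defence protein, went differently in the libraries. In the library labelled Sox9con it went from 236 CPM in the lowest band to 137, 36.6, 22.5 and 4.39. In the library labelled Sox9cKO it stood at 411, 318, 282, 462 and 409 CPM over the same bands. Cxcl2 went down in both, from 1050 to 196 CPM in the library labelled Sox9cKO and from 1080 to 21.9 in the other. Both genes were thus lower along the score in the library labelled Sox9con, and of the pair only Cxcl2 was lower in the library labelled Sox9cKO.

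**Figure D4:**
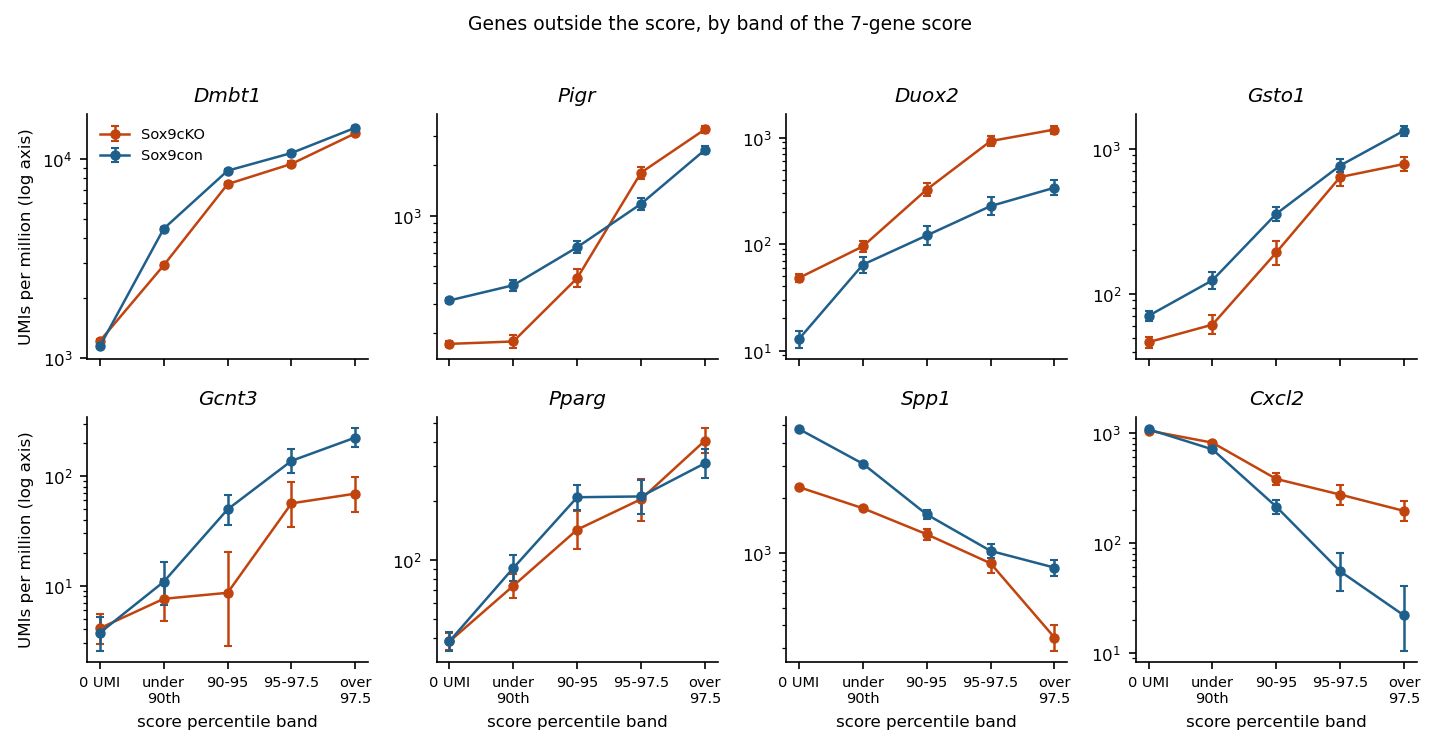
Level in CPM (log axis) of 8 genes outside the score in 5 bands of cells by score, for the libraries labelled Sox9cKO and Sox9con. Bars are exact 95% counting intervals; Dmbt1, Pigr, Duox2, Gsto1, Gcnt3 and Pparg are highest in the top band of both libraries, and Spp1 and Cxcl2 are lowest there.

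Members were then set against 2 other groups of biliary cells chosen by the same kind of score. The cells with Car4, Msln and Tff2 numbered 273 and shared 5 cells with the members, 1.62% of members and 1.83% of that group. Of 9539 genes 246 (2.58%) were higher in members and 184 (1.93%) were lower, by the same edgeR fit with shared cells left out. All 15 genes named above against the remaining cells were also higher here, from 2.39 for Gsto1 to 5.97 for Pcdh11x, with Pigr at 3.89. Plekhs1 was at 0 in that group, so members were at least 3.76- and 6.33-fold higher in the libraries labelled Sox9cKO and Sox9con, and Trpm3 (5.65), C4bp (5.22) and Kit, a receptor tyrosine kinase (4.9999), followed. Lowest in members were Pdpn, the membrane mucoprotein podoplanin (−4.45), Aldh1a2, a retinoic acid synthase (−4.29), Insyn1 (−4.11), Syt7, a calcium sensor of exocytosis, at 16.5 against 346 and 17.2 against 231 CPM (−3.94), and Tmeff2 (−3.93). Insyn1, Pdpn, Aldh1a2 and Tmeff2 had 2 to 5 UMIs each in all members together. DESeq2 did not call Plekhs1 and Kit and gave no result for Pdpn and Insyn1. Without the block, Pdpn, Aldh1a2, Insyn1 and Tmeff2 missed the threshold in edgeR (adjusted p = 0.078, 0.056, 0.105 and 0.053). Median depths of that group were 3984.5 and 2949.5 UMIs.

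The cells with Muc6 and Bcl11a, Muc6 being a gland mucin, numbered 82 and shared 7 cells with the members, 2.27% of members and 8.54% of that group. Of 9540 genes 252 (2.64%) were higher in members and 160 (1.68%) were lower in the same edgeR fit. The 15 genes were again all higher in members by fitted value, from 1.86 for Atp10b and 1.88 for Pigr to 5.75 for Kcnb2. In the library labelled Sox9cKO, Trpm3 stood at 167 against 102 CPM (0.70) and Pcdh11x at 49.9 against 30.6 CPM (0.69). Neither had a UMI in that group in the library labelled Sox9con, where Duoxa2 stood at 74.1 against 40.9 CPM (0.84). Aspa was at 0 in that group and at least 3.78- and 7.48-fold higher in members of the libraries labelled Sox9cKO and Sox9con. Lims2, Ugt2b35, Rnf125 and Scn8a were also at 0 there, with bounds of 1.72 and 4.41, 4.98 and 1.02, 1.98 and 3.55, and 2.49 and 1.42 times. DESeq2 did not call Aspa and gave no result for several of the other genes named in this comparison. Without the block, Aspa, Lims2, Ugt2b35, Rnf125 and Scn8a, and Stab2, Prkd1 and Dock10 below, missed the threshold in edgeR (adjusted p from 0.061 to 0.33). Lowest in members were Pde10a, a phosphodiesterase (−5.61), Rgs5, a regulator of G protein signals, at 10.5 against 316 and 6.44 against 223 CPM (−4.91), Stab2 (−4.48), Prkd1 (−4.36) and Dock10 (−4.25). Stab2 and Dock10 had 1 UMI each in that group of the library labelled Sox9con, so their differences came from the other library. Prkd1 had 2 UMIs in that group of the library labelled Sox9cKO and 12 in that of the library labelled Sox9con, so its difference came mostly from the latter. Of the 7 genes, Adgrg7 stood in that group at 179 and 314 CPM and Muc4 at 96.9 and 77.3 CPM, with no test, while Ltf was at 0 in both libraries.

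Within the members, the library labelled Sox9cKO was set against the library labelled Sox9con, with no test since each label has 1 library. Values are log2 ratios of CPM with 0.5 counts added, and intervals are exact conditional binomial 95% intervals that cover counting error only. Of 3323 genes with at least 100 UMIs over members, 118 (3.55%) were at least 2-fold higher and 114 (3.43%) at least 2-fold lower in the library labelled Sox9cKO. The same genes in the remaining cells gave 34 (1.02%) and 35 (1.05%), of which 16 and 21 were shared with the members. Sums over the remaining cells rest on more UMIs and so carry less counting error. The median ratio was 0.10 in members and −0.04 in the remaining cells.

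The highest ratio outside the 7 genes was that of Pdzrn3, a ubiquitin ligase with PDZ domains. It stood at 246 CPM in Sox9cKO-labelled members, with 194 UMIs in 55 cells, and at 3.18 CPM in Sox9con-labelled members, with 3 UMIs, a log2 ratio of 6.04 (4.71 to 8.57). In the remaining cells the ratio was 0.56. With members taken as the top 10% it was 2.74. Each of the 5 wells labelled Sox9cKO was above each of the 4 labelled Sox9con, 20 of 20 pairs.

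Genes of innate defence followed. Lcn2 stood at 432 and 13.8 CPM in members, in 75 of 131 and 12 of 178 cells, a log2 ratio of 4.91 (4.18 to 5.89), against 0.92 in the remaining cells. C3, the central complement protein, stood at 1047 and 75.2 CPM (3.79, 3.45 to 4.17) against a ratio of 1.95 in the remaining cells. Tnfaip2, a gene induced by tumour necrosis factor, stood at 635 and 41.3 CPM (3.92) against 0.90, and Tnfsf10, the death ligand TRAIL, at 173 and 15.9 CPM (3.40) against 1.31. The ratio of each of these 4 genes was above 0 in the remaining cells too and larger in members. Pde4b, a phosphodiesterase of cyclic AMP (170 and 16.9 CPM), Slc1a2, a glutamate transporter (113 and 11.7 CPM), and Gabrp, a subunit of a GABA receptor (569 and 73.1 CPM), had log2 ratios of 3.28, 3.22 and 2.95, and of 0.23, 0.54 and 0.52 in the remaining cells. All 8 genes were higher in 20 of 20 pairs of wells. Against the remaining cells of their own library, members had log2 ratios of 0.16, −0.70, −0.55 and −1.26 for Lcn2, Tnfaip2, C3 and Pde4b in the library labelled Sox9cKO. In the library labelled Sox9con these were −3.89, −3.75, −2.39 and −4.35. For Tnfsf10, Slc1a2 and Gabrp they were 1.12, 2.87 and 1.92 in the former and −1.01, 0.13 and −0.52 in the latter. With members taken as the top 10%, Pde4b had a ratio of 2.13 and Gabrp of 2.29.

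Lowest was Muc6, at 0 in Sox9cKO-labelled members and at 325 CPM in Sox9con-labelled members, where 305 of 307 UMIs came from 1 cell, so it is a value of that cell, and with the top 10% as members its ratio was −0.78. Ppp2r2b, a regulatory subunit of protein phosphatase 2A, stood at 5.08 and 157 CPM (−4.80, −6.84 to −3.56), with UMIs in 3 of 131 and 41 of 178 cells, against −1.96 in the remaining cells. Chst9, a sulphotransferase, stood at 30.5 and 169 CPM (−2.45), Macrod2 at 47.0 and 258 CPM (−2.45), Chchd10, a mitochondrial protein, at 38.1 and 204 CPM (−2.41), and Ubb, ubiquitin, at 30.5 and 147 CPM (−2.25). Cst3, cystatin C (36.8 and 176 CPM), and Serpinb6b, a protease inhibitor (26.7 and 118 CPM), had ratios of −2.24 and −2.12. Ubb and Chchd10 had ratios of −1.78 and −1.52 in the remaining cells. Apart from Muc6, all of these were lower in 20 of 20 pairs of wells.

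**Figure D5:**
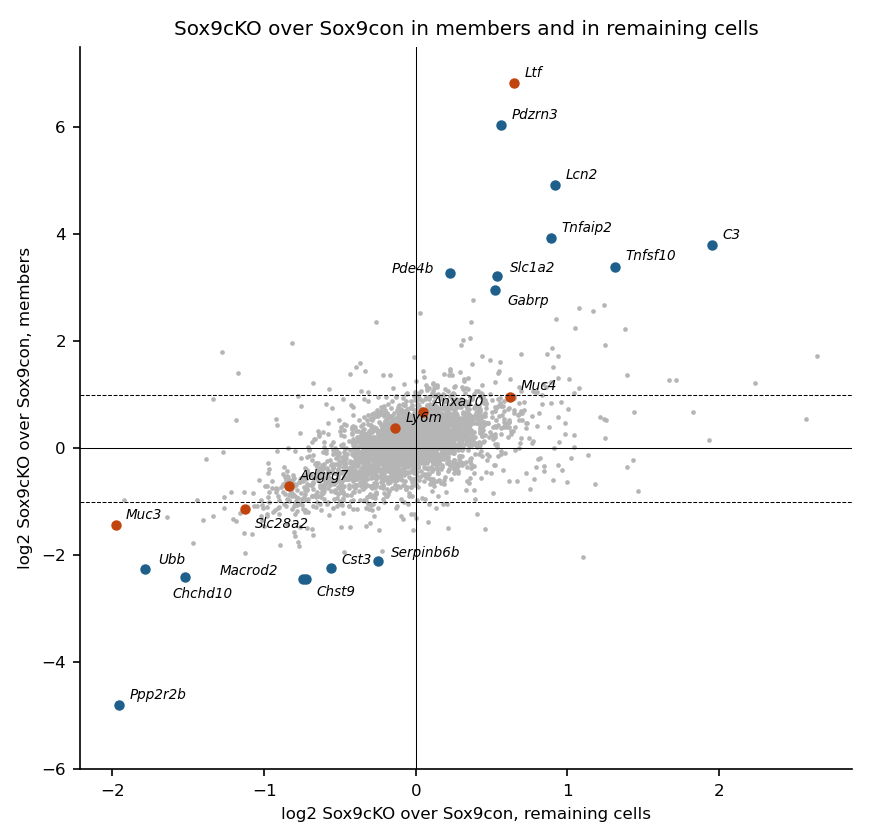
Log2 ratio of the library labelled Sox9cKO over the library labelled Sox9con in remaining cells (horizontal) and in members (vertical) for each gene with at least 100 UMIs over members (grey), with the 7 genes in orange and the other named genes in blue; dashed lines mark 2-fold in members, and Muc6 is left out. Ltf and Pdzrn3, at 6.82 and 6.04 in members, stand at 0.65 and 0.56 in the remaining cells.

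By lists, over genes with at least 20 UMIs in members, 503 of 7871 (6.39%) were at least 2-fold higher in the library labelled Sox9cKO and 527 (6.70%) at least 2-fold lower, with a median of 0.07. Of 13 genes of the NF-kB and cytokine response 7 were at least 2-fold higher and none lower, with a median of 1.01 against −0.05 in the remaining cells. Cxcl2 stood at 230 and 39.2 CPM (2.53, 2.03 to 3.103), Cxcl5 at 307 and 59.3 CPM (2.36) and Cxcl1 at 109 and 41.3 CPM (1.39), while in the remaining cells their ratios were 0.03, −0.26 and −0.43. Ptgs2 and Csf3 rested on 2 and 1 UMIs in Sox9con-labelled members. Of 11 genes of mucosal defence 6 were at least 2-fold higher and 1 lower, with a median of 1.76 against 0.92 in the remaining cells. Duox2 (1.94) and Duoxa2 (1.76) were among the higher ones and Wfdc2 (−1.12) was the lower one, while Dmbt1 had a ratio of −0.09. Pigr had a ratio of 0.55 in members and of −0.92 in the remaining cells.

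Among other lists, of 14 biliary markers none was at least 2-fold higher and 1 lower, and Sox9 had a ratio of 0.20 (−0.27 to 0.68) in members and of −0.27 (−0.37 to −0.18) in the remaining cells. Of 14 O-glycosylation enzymes none was higher and 2 lower, Gcnt3 among them at −1.49, and of 8 annexins none passed 2-fold. Of 9 gastric genes 3 were higher and 3 lower, with Ctse at 2.23 and Sult1c2 at −1.77. Flt1, at 64.7 CPM in Sox9cKO-labelled and 4.24 in Sox9con-labelled members, had a ratio of 3.76, against −0.86 in the remaining cells. The mitochondrial share of members, 4.38% in the library labelled Sox9cKO and 9.53% in the other, moved with all of these ratios, and genotype, library, wells and cell condition cannot be told apart.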

How the data were processed

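The authors deposited, per sample, a matrix of UMI counts per gene and cell, a gene table and a cell table, per the file headers. The build was GRCm39, per the submitters' processing notes, and the aligner is not given in the sources used here. The members and the gene lists were chosen with earlier results of these data known. Cells were kept and members chosen as in the report, with no doublet caller run. Counts were summed over members and over remaining cells of each library. Genes with at least 200 UMIs were fitted with edgeR 4.0.16 in R 4.3.3 (TMM, quasi-likelihood, library as block, Benjamini-Hochberg threshold 0.05). The 2 libraries are the only samples, so an adjusted p weighs a difference against the spread between these libraries, which edgeR largely shares over genes. That spread may be technical, and their different labels add to it. The genes whose score chose the cells of a fit were left out of its tests. Where membership was rebuilt without a score gene, that left-out gene was itself tested, except Slc28a2, which has no fitted value. The score genes were picked together as markers in these same cells, so those tests are a description.

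Named against remaining cells were the 15 highest and 10 lowest log2 fold changes past the threshold with 1 direction in both libraries. Against each other group 5 and 5 were named, and between libraries 8 and 8 among genes with at least 100 UMIs. Mitochondrial, ribosomal RNA, Xist and Y-linked genes and the 7 genes were left out of these, and the 7 genes, Sox9 and genes of each list were named besides. Counts thinned to 2000 UMIs used Python 3.11.15 and numpy 2.4.6, and exact intervals scipy 1.17.1. Alternatives were DESeq2 1.42.0, its size factors, a 10-UMI filter, no library block, other score limits and cell filters, depth-matched cells, single libraries and left-out wells. The fit of members against remaining cells was tested on simulated data with the same dispersion set for every gene. In that setting it recovered 0, 20, 90 and 98% of genes changed 1.5-, 2-, 4- and 8-fold, and the rates of the reported fit may differ. A gene not called may still differ modestly. Some genes of the lists are counted but not reported here by name.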

Additional observations from a re-analysis of the deposited data

Results flagged for a closer look

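For 6 of the genes named between the libraries, members lay above the remaining cells in one library and below them in the other, beyond counting error. The difference between the libraries was not tested, since each label has 1 library. Pdzrn3 had a log2 ratio of members over remaining cells of 1.21 in the library labelled Sox9cKO and of −4.46 in the library labelled Sox9con. Tnfsf10 had 1.12 and −1.01, and Gabrp had 1.92 and −0.52. The other 3 went the opposite way: Ppp2r2b had −1.58 and 1.399, Serpinb6b −0.73 and 1.16, and Muc6 −8.42 and 2.81. The Muc6 value of the library labelled Sox9cKO comes from 0 UMIs in members and is no bound, and that of the other library comes from 305 of 307 UMIs in 1 cell. Over all 9542 tested genes, 101 (1.06%) were higher in Sox9cKO-labelled and lower in Sox9con-labelled members beyond counting error, and 43 (0.451%) the reverse.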

How the results depend on the processing

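No fold change or ratio of a named gene changed sign under the alternatives run, but the order of the member shares of the libraries did. Against the remaining cells, a 10-UMI filter gave 1281 lower genes, DESeq2 389 higher and 352 lower, and the fit with no replicate block (the library, the block of the reported fit, left out) 144 and 152. Against the Car4, Msln and Tff2 cells, the 10-UMI filter gave 412 higher, DESeq2's size factors 139 and 110, DESeq2 54 and 43, and no block 33 and 13. Against the Muc6 and Bcl11a cells, DESeq2 gave 25 and 24, and no block 11 and 9. Without the block, the 7-gene checks of Ltf (6.39) and Muc3 (4.51) missed the threshold in edgeR (adjusted p = 0.11 and 0.071). Of the 10 genes at 0 in members, 9 were not called by DESeq2, the exception being Cdh5. Shares of members were 2.73% and 2.34% with the top 2.5%, 8.11% and 9.50% with the top 10%, and 7.26% in the library labelled Sox9con when thinned. With cells of at least 1000 genes and 2000 UMIs and at most 10% mitochondrial UMIs they were 5.23% and 4.82%, so the library labelled Sox9cKO had the higher share there and with the top 2.5%, and the lower one otherwise with both libraries whole. With genes of at least 50 UMIs, 256 were at least 2-fold higher and 235 lower between the labels. The cause was not tested. With members as the top 10%, Mctp1 lost its call (−0.87), and Pdzrn3, C3, Tnfaip2, Gabrp, Pde4b, Muc6 and Ppp2r2b had ratios of 2.74, 3.23, 3.36, 2.29, 2.13, −0.78 and −3.48 between the labels. Each library alone leaves no residual degrees of freedom, so it gives values without a test. Leaving out the deepest 5% of cells, and requiring 2 of the 7 genes, were chosen after seeing the data and lost no call of a named gene.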

Other observations

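The gene table holds EGFP, an added reporter sequence. It had 1 UMI in Sox9cKO-labelled members and 0 in Sox9con-labelled members, against 15 and 7 UMIs in the remaining cells.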
